A study of Mus musculus with 6 samples.

Results

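The nuclear-encoded subunits of oxidative phosphorylation were examined in RNA-seq of mouse kidney cortex, with 3 libraries from mice that express the endonuclease I-PpoI in proximal tubular epithelial cells (labelled PT-I_Ppo-1, written PT-I-PpoI here) and 3 libraries from wild type mice. I-PpoI is a homing endonuclease whose rare target sites receive double-strand breaks. The promoter or Cre line that drives it, and the age, sex and strain of the mice, are not given in the sources used here, and the transgene's own RNA was not analysed here. Subunits were taken by gene name (Nduf followed by a, b, c, s or v and a number, Sdha to Sdhd, and names that begin with Uqcr, with Cox and a digit from 4 to 8, or with Atp5), which gave 84 of the 24421 genes of the count table. By complex these were 37 genes of complex I, 4 of complex II, 8 of complex III, 18 of complex IV and 17 of complex V. The name rule places Ndufa4 in complex I, although its protein is now counted with complex IV. It also takes in Atp5s and Atp5sl, older names of Dmac2l and Dmac2, which are not regular subunits of the ATP synthase.

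Oxidative phosphorylation is carried out in the inner mitochondrial membrane. Complexes I and II pass electrons from NADH and succinate to ubiquinone, complex III passes them on to cytochrome c, complex IV hands them to oxygen, and complex V, the ATP synthase, uses the proton gradient built up by complexes I, III and IV to make ATP. Complex II is encoded by nuclear genes alone, and the others combine nuclear subunits with subunits made inside the mitochondrion. The proximal tubule is densely packed with mitochondria and relies on oxidative phosphorylation for the reabsorption of filtered solutes. Many of these genes share promoter elements for the nuclear respiratory factor NRF1 and for ETS factors such as GABP.

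The promoter windows of 66 of the 84 genes were matched by symbol in RefSeq (GRCm38.p6, 71 windows of 300 bases, from 250 before to 50 after each start). They were searched on both strands for 5 sets of letters. The NRF1 element, GCGCA and GCGC with any 1 base between them, was present in 25.4% of the subunit windows, in 9.07% of the windows of genes tested for expression and in 4.6% of all windows. The ETS core CCGGAAG was present in 22.5%, 15.9% and 8.86%, and the YY1 element AAGATGGC in 12.7%, 4.07% and 2.75%. The letters CAAGGTCA, bound by the orphan receptors ERR, were present in 5.63% (only 4 of the 71 subunit windows), 1.11% and 1.56%. The letters TATAAA of a TATA box were present in 11.3%, 7.42% and 13.6%. The ETS core ends and the YY1 element begins with AAG, so a base can belong to both, and a match describes the sequence only. The windows below are the one with the most NRF1 matches in each complex (in complex V, where several tied at 1, a window that also holds the ETS core), followed by the pair Cox6b1 and Cox6b2, a broadly expressed gene and its restricted paralog. Capitals mark the matched letters, read on either strand.
Ndufb4 (chr16:37654319-37654618, minus strand): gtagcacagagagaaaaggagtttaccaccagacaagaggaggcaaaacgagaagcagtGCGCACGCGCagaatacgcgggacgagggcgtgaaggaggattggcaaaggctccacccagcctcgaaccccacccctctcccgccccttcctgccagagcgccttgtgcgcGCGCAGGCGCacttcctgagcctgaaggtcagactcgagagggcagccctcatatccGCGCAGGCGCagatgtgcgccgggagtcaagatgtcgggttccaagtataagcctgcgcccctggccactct
Sdha (chr13:74350191-74350490, minus strand): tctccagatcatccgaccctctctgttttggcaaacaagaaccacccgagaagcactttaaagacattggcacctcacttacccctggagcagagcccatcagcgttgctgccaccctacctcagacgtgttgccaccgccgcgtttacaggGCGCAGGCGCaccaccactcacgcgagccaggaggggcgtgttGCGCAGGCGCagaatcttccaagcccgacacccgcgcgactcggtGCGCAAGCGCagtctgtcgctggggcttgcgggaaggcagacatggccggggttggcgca
Uqcrc1 (chr9:108936398-108936697, plus strand): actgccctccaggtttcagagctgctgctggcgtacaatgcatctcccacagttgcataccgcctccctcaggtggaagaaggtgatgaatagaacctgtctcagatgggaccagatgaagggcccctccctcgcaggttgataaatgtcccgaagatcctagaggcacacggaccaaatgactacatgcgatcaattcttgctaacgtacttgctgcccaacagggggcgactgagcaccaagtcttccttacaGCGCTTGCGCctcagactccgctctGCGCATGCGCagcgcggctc
Cox6a1 (chr5:115348909-115349208, minus strand): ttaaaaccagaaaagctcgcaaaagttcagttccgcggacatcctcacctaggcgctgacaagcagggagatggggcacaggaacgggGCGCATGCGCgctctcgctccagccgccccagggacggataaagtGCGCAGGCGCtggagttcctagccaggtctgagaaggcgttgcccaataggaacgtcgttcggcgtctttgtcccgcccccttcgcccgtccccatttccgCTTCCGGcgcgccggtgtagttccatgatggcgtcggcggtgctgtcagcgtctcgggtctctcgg
Atp5h (chr11:115419870-115420169, minus strand): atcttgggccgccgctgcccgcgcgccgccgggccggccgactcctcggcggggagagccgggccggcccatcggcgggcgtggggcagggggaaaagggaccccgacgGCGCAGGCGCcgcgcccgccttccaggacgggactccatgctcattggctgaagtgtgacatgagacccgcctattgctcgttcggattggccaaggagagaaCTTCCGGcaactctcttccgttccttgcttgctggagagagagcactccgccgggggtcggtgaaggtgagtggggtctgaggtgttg
Cox6b1 (chr7:30626065-30626364, minus strand): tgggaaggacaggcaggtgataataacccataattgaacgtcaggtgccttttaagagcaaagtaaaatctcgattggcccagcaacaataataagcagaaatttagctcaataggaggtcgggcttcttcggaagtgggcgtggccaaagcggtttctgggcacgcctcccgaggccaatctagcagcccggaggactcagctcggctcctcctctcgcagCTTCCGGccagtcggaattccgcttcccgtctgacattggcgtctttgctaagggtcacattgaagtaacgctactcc
Cox6b2 (chr7:4753045-4753344, minus strand): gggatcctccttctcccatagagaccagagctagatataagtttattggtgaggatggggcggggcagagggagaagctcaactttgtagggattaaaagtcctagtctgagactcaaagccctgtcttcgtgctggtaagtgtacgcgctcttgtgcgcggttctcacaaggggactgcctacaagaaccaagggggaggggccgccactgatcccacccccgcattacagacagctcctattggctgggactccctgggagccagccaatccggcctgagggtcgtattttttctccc
The Ndufb4 and Sdha windows each held 3 NRF1 matches, all upstream of the start, and in Uqcrc1 the 2 matches lay just downstream of it. Cox6a1 carried 2 NRF1 matches and 1 ETS core, Atp5h 1 of each and Cox6b1 an ETS core alone. The Cox6b2 window held none of the 5 sets of letters.

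Library totals ran from 13.6 to 20.9 M read pairs. Levels are CPM, counts scaled to a common library total with edgeR's TMM factors, and levels compared between genes are also divided by exon length in kilobases (FPKM). The labels do not say that each sample came from its own mouse, and p-values therefore measure the spread between these samples only. Where values of 2 groups are set against each other, PT-I-PpoI comes first, as the 3 replicates in order or as mean ± SD (n = 3). In bulk tissue, fewer cells of a type and less RNA per cell cannot be told apart. The submitters named the libraries in either of 2 ways, with a hyphen (wild type 2 and 3 and PT-I-PpoI 3) or without one (wild type 1 and PT-I-PpoI 1 and 2), and the labels do not say what the difference marks. Between hyphenated and plain names, in an edgeR fit that also held the group, 1.77% of all genes were called higher and 1.29% lower at an adjusted p under 0.05. Of the subunits, Atp5e alone passed that comparison, and log2 differences within each form of name, plain first and hyphenated second, are given below for each complex and for the subunits described at length.

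The subunits were among the abundant mRNAs of the cortex and varied little between libraries. Together the 84 genes took 2.94% to 3.06% of all counted read pairs in wild type and 3.14% to 3.32% in PT-I-PpoI, and these ranges did not overlap. These are shares of raw counts without TMM factors. With library totals as the only scaling, the median log2 fold change of all genes was also above 0, at 0.063. Of the 84, 80 passed the filter on low counts. The median coefficient of variation of the 80 between replicates was 3.63% in wild type and 5.33% in PT-I-PpoI.

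Ndufs5, an accessory subunit of complex I (chr4:123712710-123718186, mm10), had 0 read pairs in each of the 6 libraries. Of its 509 exon bases, 484 (95.1%) are shared in the table with BC002163 on the same strand, a gene model whose exons also include a site on chromosome 16. The counting command set no option to assign read pairs that overlap several genes, and BC002163 itself had 5 to 19 read pairs per library. The value of 0 is therefore no measure of Ndufs5 expression. The other untested genes were restricted paralogs of complex IV. Cox8c had 1 read pair, in PT-I-PpoI replicate 1. Cox7b2 had 1 and 2, in PT-I-PpoI replicates 2 and 3, and Cox8b had 0 to 7 read pairs per library. A count of 0 allows up to 3 read pairs, or 0.144 to 0.227 CPM in these libraries, for counting error only. Exon bases of 9 further subunit genes overlap a gene on the other strand, from 3.53% of Ndufa4l2 to 27.5% of Ndufa13. The counting used no strand, so read pairs over these shared bases could not be told apart and may have been left out.

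Levels per length spanned a wide range in wild type. Atp5b, the catalytic beta subunit of the ATP synthase, was highest at 2250 ± 41.6 FPKM (SD, n = 3), and Atp5a1, its partner alpha subunit, stood at 1140 ± 31.1. The proteins are present in equal number in the enzyme. In complex IV, Cox4i1 (1190 ± 48.1 FPKM), Cox8a (1150 ± 14.6) and Cox6c (1100 ± 52.0) led, and neighbours in that order differed by no more than about their spread. Ndufa4 reached 1220 ± 28.5 FPKM, above every other gene named for complex I, where Ndufb8 followed at 610 ± 23.5. The median subunit of complex I, at 237 FPKM, was below that of complex II (360), complex V (471), complex III (512) and complex IV (513). Complex II was the most even, from Sdhd at 327 ± 8.54 to Sdhb at 492 ± 20.7 FPKM. Complex III was led by Uqcrh at 714 ± 30.0 FPKM, followed by Uqcrq (644 ± 54.9) and Uqcr10 (634 ± 23.0), which differed from each other by less than their spread.

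**Figure D1:**
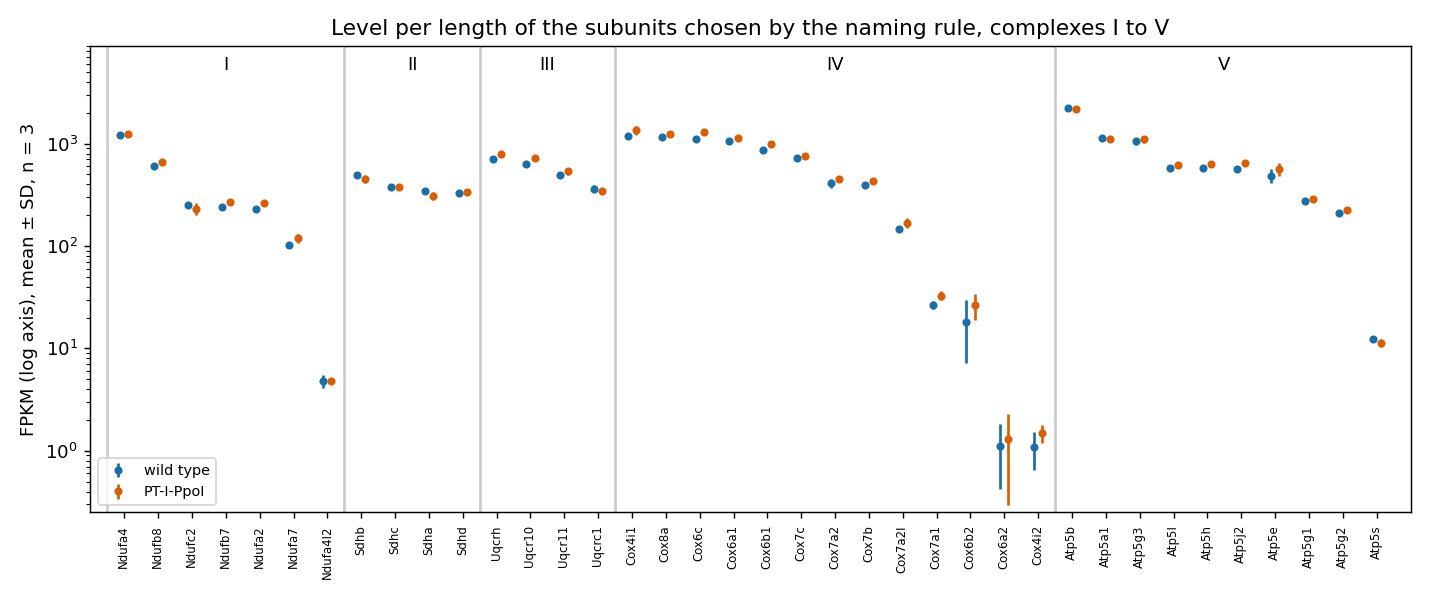
Level per length of the 38 tested subunits chosen by the naming rule, in wild type (blue) and PT-I-PpoI (orange), as FPKM on a log axis, mean ± SD with n = 3, ordered within complexes I to V. Atp5b stands above the rest at 2250 FPKM, and the restricted paralogs of complex IV lie far below.

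No subunit passed the test between the groups. Of the 80 tested, 0 were higher and 0 were lower in PT-I-PpoI by edgeR's quasi-likelihood test at an adjusted p under 0.05, where 0.136% and 0% of all 13977 genes passed, and the smallest adjusted p was 0.366. DESeq2 also called 0. At an unadjusted p under 0.05, 4 subunits were above and 0 below wild type, or 5% of the 80 against 6.42% (higher) and 5.61% (lower) of all genes. The fold changes were small and mostly of 1 sign. In 62 of the 80 the log2 fold change was above 0, a share of 77.5% against 50.1% of all genes, and the median was 0.098 against 0 for all genes. Every PT-I-PpoI library lay above every wild type library for 23 subunits (28.7%, against 9.23% of all genes) and below for 0 (against 7.74%). With the form of the library name as a term, edgeR called 0 subunits (against 0.351% of all genes higher and 0.107% lower), and at an unadjusted p under 0.05 it had 5 higher and 0 lower (against 6.24% and 6.32%). Within plain names the median log2 difference of the 80 was 0.089, and within hyphenated names it was 0.079.

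**Figure D2:**
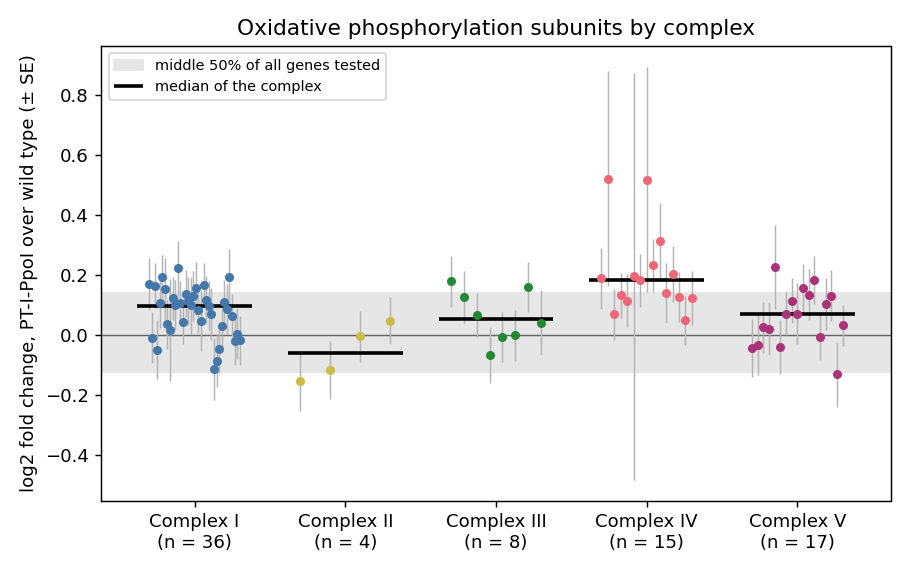
Log2 fold change of each tested subunit, PT-I-PpoI over wild type, with its standard error, by complex; black bars are medians and the grey band holds the middle 50% of all genes tested. All 15 complex IV genes lie above 0, the median of complex II lies below 0 at -0.062, and most points fall in or near the grey band.

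Complex I takes electrons from NADH. Its 36 tested genes had a median of 0.097 on the log2 scale, 29 lay above 0, and 11 (30.6%, against 9.23% of all genes) did not overlap between the groups, each with PT-I-PpoI above. The medians within the forms were both 0.078. Ndufa2, an accessory subunit of the NADH-oxidizing arm, was at 156, 163 and 158 CPM in PT-I-PpoI and 145, 137 and 135 CPM in wild type. The groups did not overlap, and the log2 fold change was 0.19 ± 0.07 (SE, adjusted p = 0.367, edgeR), or 0.14 and 0.21 within the forms. Of its 602 exon bases 60 overlap Tmco6 on the other strand. Ndufa7 (chr17:33824572-33838316), an accessory subunit, was at 143, 158 and 127 against 126, 121 and 121 CPM, with the lowest PT-I-PpoI library just above the highest wild type library (log2 fold change 0.22 ± 0.09, edgeR adjusted p = 0.401). Its plain and hyphenated differences were 0.256 and 0.075. Ndufb7, an accessory subunit of the membrane arm, was at 145 ± 4.76 against 129 ± 3.98 CPM (log2 fold change 0.17 ± 0.07), with 0.235 and 0.103 within the forms. Ndufb8, also of the membrane arm, was at 423 ± 11.8 against 391 ± 15.1 CPM (0.14 and 0.08 within the forms). The lowest fold change was that of Ndufc2, a membrane arm subunit, at 150, 142 and 182 against 174, 175 and 164 CPM. Its groups overlapped through PT-I-PpoI replicate 3, and the log2 difference was -0.25 within plain and 0.10 within hyphenated names.

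The 7 tested core genes, those whose proteins carry the flavin and the iron-sulfur clusters or bind ubiquinone, had a median of 0.004, with 4 above 0 (0.018 and 0.037 within the forms). The other 29 had a median of 0.106, with 25 above 0 (0.107 and 0.090 within the forms). The core genes are also the longer ones, with a median exon length of 1606 bases against 635. The part of length in this difference was not tested.

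Complex II oxidizes succinate and is part of the citric acid cycle. It was the complex with a median below 0 (-0.062, or 0 with library totals as the only scaling), and 3 of its 4 genes had fold changes below 0, with Sdhc at -0.005 and above 0 under upper-quartile factors or library totals. The medians within the forms were -0.046 and -0.013. Sdha (chr13:74322255-74350240), the flavoprotein that binds succinate, was at 838, 826 and 973 CPM in PT-I-PpoI and 945, 964 and 1023 CPM in wild type. The PT-I-PpoI libraries with plain names were the lowest of the 6, and replicate 3 fell within the wild type range (log2 fold change -0.15 ± 0.10, edgeR adjusted p = 0.545). Sdhb, the iron-sulfur subunit, was at 486 ± 45.3 against 528 ± 22.2 CPM, with the same libraries lowest. The membrane anchors Sdhc (445 ± 11.9 against 446 ± 28.8 CPM) and Sdhd (435 ± 7.67 against 421 ± 11 CPM) overlapped between the groups. Within the forms the log2 differences were -0.18 and -0.03 for Sdha and -0.125 and -0.011 for Sdhb.

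Complex III moves electrons from ubiquinol to cytochrome c. Its 8 genes had a median of 0.054, with 5 above 0 and 3 that did not overlap, each with PT-I-PpoI above (37.5%, against 9.23% of all genes). The medians within the forms were 0.073 and 0.070. The small subunits Uqcr10 (307, 340 and 302 against 291, 277 and 271 CPM) and Uqcrh (410, 447 and 450 against 395, 403 and 372 CPM), the hinge protein, stood above wild type in every library (log2 fold changes 0.18 ± 0.08 and 0.16 ± 0.08, edgeR adjusted p = 0.436 and 0.468). Within the forms the differences were 0.15 and 0.14 for Uqcr10 and 0.115 and 0.218 for Uqcrh. Uqcr11 was at 234 ± 18.8 against 214 ± 5.02 CPM, with overlapping groups and differences of 0.22 and -0.02 within the forms. The core protein Uqcrc1 was at 575 ± 27.0 against 603 ± 46.0 CPM, and the Rieske iron-sulfur protein Uqcrfs1 at 537 ± 20.9 against 537 ± 28.9 CPM, both within their spread.

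Complex IV, cytochrome c oxidase, had the highest median, 0.181 on the log2 scale, and all 15 tested genes had fold changes above 0 (14 of 15 without PT-I-PpoI replicate 3 or without wild type replicate 1). The medians were 0.163 and 0.124 within plain and hyphenated names. Cox6c (chr15:35931976-35938246), a small transmembrane subunit, had the smallest p of all subunits. It was at 636, 680 and 627 CPM in PT-I-PpoI and 572, 561 and 522 CPM in wild type, with no overlap (log2 fold change 0.23 ± 0.09, edgeR adjusted p = 0.366), and the difference was 0.20 within plain and 0.21 within hyphenated names. Cox4i1, the regulatory subunit, was at 1036, 1135 and 932 against 941, 915 and 868 CPM, and overlapped through PT-I-PpoI replicate 3 (0.205 and 0.064 within the forms). Cox7a2l, which helps join complexes III and IV into supercomplexes, was at 194 ± 20.5 against 168 ± 4.13 CPM, with overlapping groups and differences of 0.31 and 0.02 within the forms. Cox6b1 was at 498 ± 33.6 against 439 ± 11.3 CPM, Cox8a at 683 ± 50.8 against 627 ± 7.93 CPM and Cox7b at 434 ± 19.6 against 397 ± 13.2 CPM, without overlap. Within the forms the differences were 0.245 and 0.078 for Cox6b1, 0.16 and 0.03 for Cox8a and 0.05 and 0.22 for Cox7b. Cox6a1 (604 ± 34.8 against 558 ± 26.2 CPM), Cox7a2 (342 ± 24.5 against 310 ± 30.3 CPM) and Cox7c (338 ± 16.3 against 327 ± 10.9 CPM) overlapped between the groups. Without the restricted paralogs, the 11 widely expressed genes of the complex had a median of 0.131, all above 0, with 5 that did not overlap (45.5%, against 9.23% of all genes, each with PT-I-PpoI above).

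Several subunits of complexes I, IV and V are encoded by paralogs with different tissue use. In cortex the broadly expressed genes were far above the restricted ones. Cox4i1 stood 1100-fold above Cox4i2, which responds to low oxygen in other cells, and Cox6a1 937-fold above the striated muscle gene Cox6a2, per length in wild type. Both low genes rested on 5 to 25 read pairs per library. Cox4i2 was at 1.32, 0.938 and 0.992 CPM in PT-I-PpoI and 0.530, 1.14 and 0.697 CPM in wild type, with wild type replicate 2 inside the PT-I-PpoI range. Its log2 fold change was 0.52 ± 0.36 (edgeR adjusted p = 0.566), with 0.93 and 0.14 within the forms, and ran from 0.29 without wild type replicate 1 to 0.82 without wild type replicate 2. Cox6a2 was at 0.265, 0.717 and 1.56 against 0.241, 1.14 and 0.847 CPM, and its plain-name libraries were lowest in both groups.

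Cox6b1 exceeded Cox6b2, best known from testis, 47.5-fold. Cox6b2 was at 14.0, 21.7 and 13.2 CPM in PT-I-PpoI and 19.2, 7.95 and 6.72 CPM in wild type. Wild type replicate 1 was the second highest of the 6 libraries, and the difference was -0.14 within plain and 0.84 within hyphenated names. Cox7a1 (chr7:30184171-30186030), the heart and skeletal muscle isoform that brown fat also uses, was at 11.9, 13.2 and 10.9 against 10.1, 10.3 and 8.72 CPM without overlap (log2 fold change 0.31 ± 0.13, edgeR adjusted p = 0.395), with 0.31 and 0.20 within the forms, and was 15.5-fold below Cox7a2 per length. Ndufa4 (616 ± 20.9 against 601 ± 14.0 CPM) exceeded its paralog Ndufa4l2, another gene induced by low oxygen, 255-fold. Ndufa4l2 was at 4.63 ± 0.268 against 4.61 ± 0.676 CPM. The genes Atp5g1, Atp5g2 and Atp5g3 encode the same mature c subunit of the ATP synthase ring. Atp5g3 was 3.80-fold above Atp5g1 and 5.02-fold above Atp5g2 per length in wild type. Between the groups Atp5g1 was at 252 ± 4.99 against 240 ± 2.58 CPM, Atp5g2 at 146 ± 7.89 against 135 ± 2.70 CPM and Atp5g3 at 798 ± 61.7 against 759 ± 63.9 CPM. Paralogs this similar may lose or share reads in the counting.

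**Figure D3:**
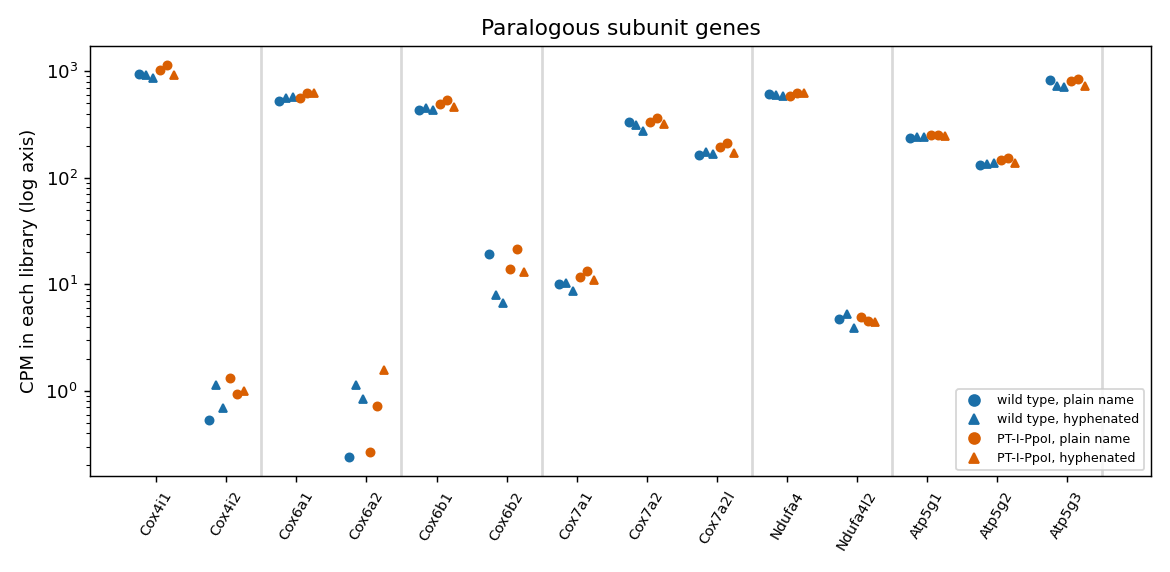
CPM in each library (log axis) for the paralog groups, wild type in blue and PT-I-PpoI in orange, with circles for plain and triangles for hyphenated library names. Within each group of complex IV paralogs and for Ndufa4 the genes differ far more than the libraries do, except for Cox7a2 and Cox7a2l, which lie nearer each other. Cox6b2 and Cox6a2 split by the form of the name.

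Complex V, the ATP synthase, had a median of 0.071 over 17 genes, with 12 above 0 and 3 that did not overlap, each with PT-I-PpoI above (17.6%, against 9.23% of all genes). The medians within the forms were 0.087 and 0.065. The genes of the beta and alpha subunits, Atp5b (4130 ± 150 against 4230 ± 78.2 CPM) and Atp5a1 (2690 ± 114 against 2770 ± 75.7 CPM), differed by less than their spread. Atp5j2 (chr5:145183706-145191592), a subunit of the membrane part, was at 288, 316 and 314 against 279, 266 and 264 CPM without overlap (log2 fold change 0.18 ± 0.08, edgeR adjusted p = 0.416), and its differences within the forms were 0.112 and 0.245. Atp5h, subunit d of the peripheral stalk, was at 367 ± 18.4 against 329 ± 7.37 CPM, also without overlap (0.18 and 0.10 within the forms). Atp5l, subunit g, was at 316 ± 15.5 against 294 ± 19.4 CPM and overlapped. Atp5e (chr2:174461075-174464101), the small epsilon subunit of the central stalk, was at 256, 255 and 196 CPM in PT-I-PpoI and 237, 189 and 178 CPM in wild type. Its 3 plain-name libraries were the highest and its 3 hyphenated ones the lowest, with PT-I-PpoI above wild type by 0.11 and 0.10 on the log2 scale within the forms. With group as a term, the log2 difference of hyphenated minus plain libraries was -0.38 ± 0.07 (SE, edgeR adjusted p = 0.023), where Cox6a2 (1.78 ± 0.44, adjusted p = 0.0717) and Cox6b2 (-0.92 ± 0.235, adjusted p = 0.0769) came next and did not pass. Atp5s had the lowest fold change of the complex, at 16.8 ± 1.56 against 18.5 ± 1.11 CPM (log2 fold change -0.13 ± 0.11, with -0.02 and -0.31 within the forms). The 5 genes of the F1 head and central stalk had a median of 0.020 and a median exon length of 1800 bases, against 0.109 and 685.5 bases for the other 10 subunits.

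**Figure D4:**
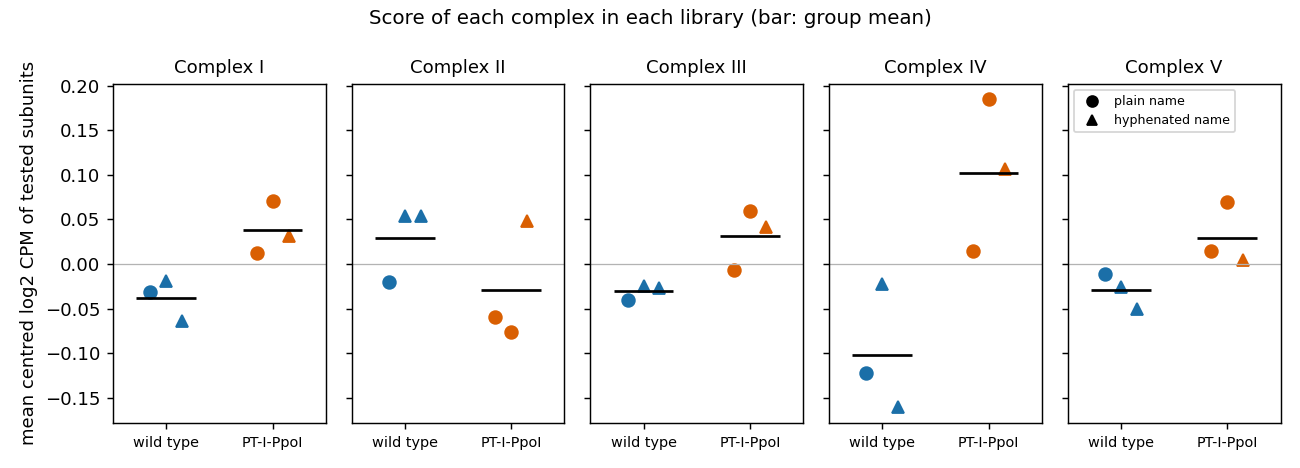
Mean of centred log2 CPM over the tested subunits of each complex in each library, with bars at group means, circles for plain and triangles for hyphenated names. In complexes I, III, IV and V the PT-I-PpoI libraries lie above the wild type libraries, and in complex II the groups overlap.

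Each library was given a score per complex, the average over that complex's subunits of their log2 CPM minus the subunit's own average over the 6 libraries. For complex IV it was 0.014, 0.185 and 0.106 in PT-I-PpoI and -0.122, -0.022 and -0.161 in wild type, a difference of 0.203 with a pooled SD of 0.079. That score weighs the restricted paralogs Cox4i2, Cox6a2, Cox6b2 and Cox7a1 like the rest. The mean log2 fold change was 0.206 over the 15 tested genes and 0.141 over the 11 widely expressed ones. The score of complex I was 0.012, 0.071 and 0.031 against -0.031, -0.019 and -0.064. For complex II it was -0.059, -0.076 and 0.048 against -0.020, 0.054 and 0.054, where the 3 plain-name libraries were lowest. PT-I-PpoI replicate 2 was highest in complexes I, III, IV and V.

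Fold changes of the subunits went with exon length, and other genes of the same length showed a like shift. The 14 subunits of up to 500 exon bases had a median of 0.139 and the 39 of over 500 and up to 1000 bases one of 0.116, on the log2 scale, against 0.124 over 123 and 0.104 over 817 other genes of those lengths. For over 1000 and up to 2000 bases the medians were -0.003 over 22 subunits and 0.039 over 3107 other genes. For over 2000 and up to 4000 bases they were -0.043 over 5 subunits and -0.010 over 5668 others. Of the subunits of up to 1000 bases, 13 of 14 and 37 of 39 lay above 0, and of the longer ones 10 of 22 and 2 of 5. Across the 80 subunits the Pearson correlation of log2 fold change with log10 length was -0.482 and Spearman's rho -0.507, and across 13897 other genes they were -0.129 and -0.178. Across the 1901 other genes with a mean of at least 100 CPM they were -0.287 and -0.326. Genes are not independent replicates, and these all come from the same 6 libraries. With the trend of fold change on length over all genes subtracted, a step added after the data were seen, 29 of 80 subunits and 10 of 15 complex IV genes lay above 0, and the medians were -0.020 for all subunits and 0.045 for complex IV. The libraries differed in this respect. Over other genes, the correlation of centred log2 CPM with log10 length was -0.127, -0.166 and 0.111 in PT-I-PpoI replicates 1 to 3. In wild type replicates 1 to 3 it was 0.046, 0.08 and 0.09. Over the subunits it was -0.143, -0.472 and -0.013 against 0.05, 0.196 and 0.355. Among hyphenated names, PT-I-PpoI replicate 3 was therefore below wild type replicates 2 and 3 over the subunits but above them over other genes.

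**Figure D5:**
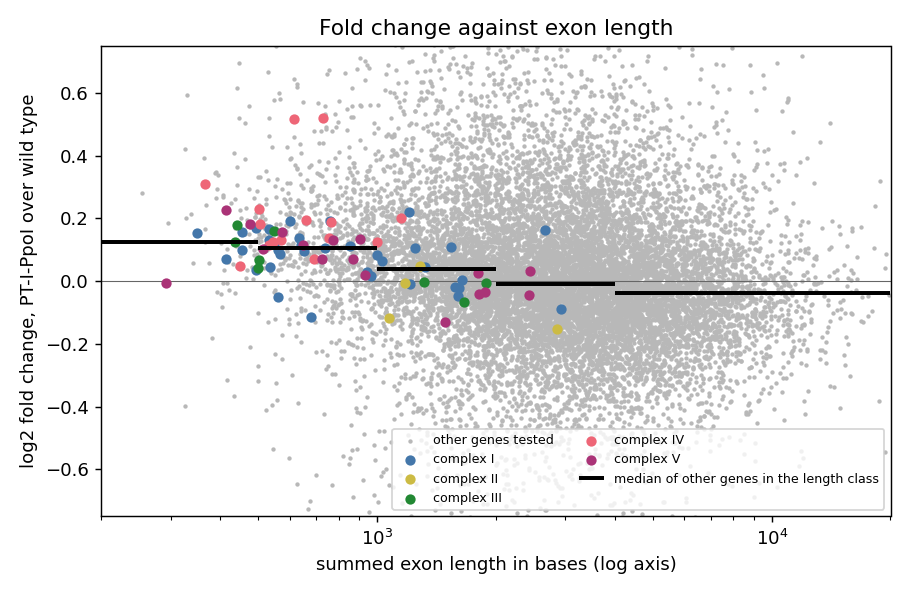
Log2 fold change against summed exon length (log axis) for the subunits, coloured by complex, and for the other genes tested (grey; those beyond 0.75 in either direction are outside the frame). Black bars are medians of the other genes in 5 length classes, from 0.124 at up to 500 bases to -0.039 at over 4000 bases, and the short subunits lie around them.

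Fold changes were also read by promoter letters, as a description with no test. Of the tested subunits with a window, the 16 with an NRF1 match had a median log2 fold change of 0.103 and the 47 without one 0.110. For the ETS core the medians were 0.119 over 16 and 0.106 over 47, and for the YY1 element 0.116 over 9 and 0.104 over 54. For the ERR letters they were 0.071 over 3 and 0.112 over 60, and for the TATA box 0.166 over 5 and 0.103 over 58. Sdha, with 3 NRF1 matches, had a log2 fold change of -0.15 and Ndufb4, with 3, one of 0.16 (190 ± 17.9 against 170 ± 4.29 CPM).

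Other genes of the pathway were read from fixed lists, and 0 of them passed in either direction. The assembly factors, which build the complexes without staying in them, had a median of 0.010 on the log2 scale, with 24 of 46 above 0 (medians of 0.040 and 0.052 within the forms). The copper and assembly protein Cmc2 was at 17.4 ± 0.726 against 13.8 ± 1.07 CPM (edgeR adjusted p = 0.301), and Cox15, which makes the heme of complex IV, at 76.6 ± 9.66 against 95.1 ± 7.62 CPM (edgeR adjusted p = 0.334). Sco2 and Pet117 had a count of 0 in every library. Read pairs may have been lost in the counting, as for Ndufs5, so this does not show absent expression. The cause was not tested. Electron carriers and enzymes of coenzyme Q synthesis had a median of 0.005 over 17 genes (-0.014 and 0.027 within the forms), and Coq5, a methyltransferase of that synthesis, was at 50.1 ± 2.27 against 43.3 ± 2.53 CPM. Genes of the citric acid cycle and pyruvate dehydrogenase, which feed the chain, had a median of -0.045 over 21, with 12 below 0 (medians of -0.054 and 0.031 within the forms), and Dlst was at 454 ± 51.8 against 520 ± 40.5 CPM. Of 25 transcription regulators and mitochondrial DNA factors the median was -0.004 (0.004 and -0.017 within the forms). The estrogen-related receptors Esrrb (58.8 ± 3.51 against 40.9 ± 6.37 CPM, edgeR adjusted p = 0.189) and Esrrg (39.8 ± 6.21 against 50.2 ± 1.28 CPM, edgeR adjusted p = 0.322) had fold changes of opposite sign. The 17 hypoxia-inducible genes tested had a median of 0.025, which was -0.061 in the fit that also held the form of the name, and -0.058 and -0.097 within the forms. Slc2a1, a glucose transporter, was at 69.0 ± 1.01 against 53.4 ± 4.76 CPM (edgeR adjusted p = 0.189), and Egln1, a prolyl hydroxylase that senses oxygen, at 85.5 ± 0.455 against 94.3 ± 2.38 CPM (edgeR adjusted p = 0.436). Of 5 subunits and regulators outside the name rule (Cyc1, Ndufab1, Usmg5, Atpif1 and 2010107E04Rik) 3 lay above 0, with a median of 0.038. The subunits encoded by mitochondrial DNA were not analysed here.

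Marker genes of the cell types that cortex tissue can hold were read the same way, against the 0.136% and 0% of all genes that passed. Of 22 proximal tubule genes 21 had fold changes below 0 and 0 passed. For 8 of the 22 every PT-I-PpoI library lay below every wild type library (against 7.74% of all genes), and for 0 above (against 9.23%). At an unadjusted p under 0.05 edgeR had 8 lower (against 5.61% of all genes) and 0 higher (against 6.42%). The median of the 22 was -0.242 (-0.293 and -0.115 within the forms). Their summed level was between 23000 and 28400 CPM in PT-I-PpoI libraries against 27800 to 31900 CPM. The 12 thick ascending limb genes all lay above 0 (summed 8130 to 8420 against 5800 to 6590 CPM), and those that passed included Ptger3, a prostaglandin receptor, and Tmem207, a membrane protein. The 15 collecting duct genes all lay above 0 as well (1390 to 1460 against 1010 to 1100 CPM), and the vasopressin receptor Avpr2 and the water channel Aqp4 passed. Of 10 distal convoluted tubule genes 4 lay above 0 (4120 to 4510 against 4210 to 4330 CPM), and their median of -0.075 was -0.185 and 0.107 within the forms. The medians within the forms were 0.420 and 0.490 for the thick ascending limb and 0.430 and 0.334 for the collecting duct.

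All 10 endothelial genes lay above 0 (901 to 941 against 746 to 850 CPM), as did all 7 podocyte genes (417 to 522 against 382 to 446 CPM). Of pericyte and smooth muscle genes 9 of 11 lay above 0 (191 to 236 against 171 to 207 CPM, with Ren1 at 0), and of macrophage genes 5 of 9 (150 to 167 against 134 to 166 CPM). Read pairs can be lost in the counting, as for Ndufs5, so the 0 of Ren1 does not show absent expression. Its cause was not tested. The medians within the forms were 0.054 and 0.268 for endothelial, 0.096 and 0.303 for podocyte, 0.153 and 0.142 for pericyte and -0.139 and 0.270 for macrophage genes. Cox7a1 and Cox6a2 are isoforms of striated muscle, and Cox7a1 also of brown fat. Striated muscle genes summed to 2.27 to 2.54 against 1.25 to 1.78 CPM, with Myh4 at 0, and fat cell genes to 6.35 to 36.8 against 14.7 to 60.9 CPM. Adrenal cortex genes summed to 4.46 to 6.51 against 4.58 to 5.68 CPM, with Cyp11b1, Cyp11b2 and Nr5a1 at 0. The part of cell makeup in the subunits' fold changes was not tested.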

How the data were processed

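Stranded mRNA libraries of kidney cortex were sequenced in read pairs, per the labels' protocols. The authors deposited raw counts of read pairs per gene. The aligner was HISAT2, per the labels' protocols, and featureCounts 1.5.2 counted pairs with both ends mapped over exons, per the file headers, with no option for strand or for reads that map to or overlap several genes. Without molecular identifiers, read pairs are not independent molecules. The labels' protocols name mm9, the file headers an mm10 annotation. All 84 subunit genes overlapped their RefSeq position in GRCm38.p6, so coordinates are given as mm10. The authors also deposited regularized log2 (rlog) values, used here for an alternative only. Exon lengths in bases are those of the count table, per the file headers.

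Counts were tested in R 4.3.3 with edgeR 4.0.16: expression filter (minimum count 10, 13977 genes), TMM factors, quasi-likelihood test on group alone, two-sided, Benjamini-Hochberg adjustment over all genes, threshold 0.05. The SE is the size of the log2 fold change over the root of the F statistic. Scores used a prior count of 2. The procedure was tested on simulated data with fold changes larger than that of any tested subunit. It was not tested at fold changes as small as those of the subunits. Members and lists were chosen with earlier results of these data known. Named subunits are, by complex, the 3 with the smallest p, the 2 highest per length, the highest and lowest fold change, all genes of the paralog groups, and any that passed. From lists, genes that passed and those with the smallest p in each direction are named, except where an item is not reported here. Any other gene, such as Ndufs5, Ndufb4, Uqcrq and Uqcrfs1, was chosen after its values were seen. Alternatives were other size factors and filters, DESeq2 1.42.0, limma-voom and limma 3.58.1 on rlog values, the name form or the replicate number as a term, and leaving out each library.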

Additional observations from a re-analysis of the deposited data

How the results depend on the processing

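No subunit passed under any of the 16 alternatives with a test, a count of 0 in either direction each time. The smallest adjusted p of a subunit ran from 0.0671, in edgeR without PT-I-PpoI replicate 3, to 0.786. At an unadjusted p under 0.05, DESeq2 had 4 subunits higher and 0 lower, against 5.3% of all genes in either direction. With library totals only edgeR had 23 higher and 0 lower, against 9.96% and 3.13% of all genes, whose median also moved to 0.063. With upper-quartile factors it had 10 higher and 0 lower, against 7.31% and 4.87%. The other alternatives on all 6 libraries had 4 to 6 higher and 0 lower, against 5.5% to 6.85% and 5.05% to 6.92%. Without PT-I-PpoI replicate 3 edgeR had 15 higher and 2 lower, where 11.3% of all genes were higher and 12.7% lower. With 1 other library left out it had 0 to 7 higher (against 3.97% to 8.04% of all genes) and 0 lower (against 2.46% to 7.27%). Among alternatives that tested 80 subunits and kept the length trend, the number above 0 ran from 59, without PT-I-PpoI replicate 3, to 74, with library totals only.

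Over all genes, edgeR called 19 higher and 0 lower. It called 31 higher with library totals only, 44 and 3 with no low-count filter, 49 and 15 with the library name's form added, 33 and 7 with the replicate number as a block, and DESeq2 called 133 and 61. Leaving out a library gave 0 to 261 higher and 0 to 364 lower, with both highest values without PT-I-PpoI replicate 3. Calls of higher genes fell to 0 when either plain-named PT-I-PpoI library or wild type replicate 3 was left out, to 2 without wild type replicate 1 and to 9 without wild type replicate 2. The causes were not tested.

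Same-numbered libraries were not treated as pairs. Their residuals correlated at 0.219, -0.128 and 0.163, and 3 libraries per group cannot settle whether the numbers pair the samples. With the replicate block the subunit calls stayed at 0 and all 38 named subunits kept their sign.

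The following medians moved by more than the replicate spread. Library totals only gave 0.161 for all subunits and 0.160, 0, 0.115 and 0.134 for complexes I, II, III and V, while the median of all genes moved to 0.063. The rlog values gave 0.053 for all subunits and 0.056, 0.079 and 0.042 for complexes I, IV and V. The name form as a term gave 0.086 for complex III. Subtracting the length trend gave -0.020 for all subunits and -0.023, -0.047, 0.045 and -0.025 for complexes I, III, IV and V. Leaving out a library moved complex I (without PT-I-PpoI replicate 2), complex III (without PT-I-PpoI replicate 1, and without wild type replicate 3) and complex V (without PT-I-PpoI replicate 2) by more than that spread, and no other median. Ranges were 0.068 to 0.110 for all subunits, 0.066 to 0.117 for complex I, -0.109 to -0.032 for complex II, 0.041 to 0.089 for complex III, 0.127 to 0.193 for complex IV and 0.026 to 0.087 for complex V.

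Signs of fold changes near 0 reversed for Sdhc with upper-quartile factors (0.015), library totals only (0.058) and the name form (0.035), for Atp5b (0.028) and Atp5a1 (0.019) with library totals only, and for Ndufa4l2 with the name form (-0.010). When a library was left out, values ran from -0.058 to 0.022 for Sdhc, -0.096 to 0.107 for Ndufa4l2 and -0.525 to 0.646 for Cox6a2. Depth limits Cox4i2, Cox6a2, Cox7b2, Cox8b and Cox8c, at 25 read pairs or fewer per library.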
